A study of Apis mellifera with 27 samples.

Results

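Laser-captured small Kenyon cell-enriched tissue of honey bee (Apis mellifera) foragers was compared between 10:00, in the morning, and 22:00, in the evening, of day 11 of the study. The comparison rests on 8 of the 27 libraries analysed here: the 4 labelled 10:00 day 11 and the 4 labelled 22:00 day 11, each set holding 2 libraries from colony 1 and 2 from colony 2. Libraries were assigned to the 2 groups by these time labels alone, while the comparison itself was chosen with earlier results of these data known. All groups came from foragers trained to a time of day, the labels give no genotype, drug or age contrast, and the 2 colonies went through separate behavioural experiments. In laser capture microdissection cells are excised from sections under a microscope, so each library is a bulk sample in which fewer cells of a type and less RNA per cell cannot be told apart. The labels do not tie libraries to bees or say that replicates came from separate bees, so the p-values speak to the scatter among these libraries, part of which may be technical.

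Mushroom bodies are the centres of learning and memory in the insect brain, and small Kenyon cells are the most numerous of their intrinsic neurons. The circadian clock of animals is a loop in which transcription factors switch on the genes of their own repressors, among them period and cryptochrome. Bees carry the mammalian-type cryptochrome Cry2 and lack the light-sensing cryptochrome of Drosophila. Foragers learn the hour at which food is offered, and the study set out to look for links between the clock and these memory centres.

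The 8 libraries held 5589770 to 10846551 counts, with at least 1 count for 8483 to 10243 of the 12319 genes in the table. The shallowest were 10:00 colony 2 replicate 1, with 5589770 counts, 22:00 colony 2 replicate 2, with 5837096, and 10:00 colony 2 replicate 2, with 6242597. On the first principal component, which held 21.4% of the variance, 3 of the 27 libraries stood apart. Both colony 2 libraries of 10:00 were among them, with scores of 94.7 and 66.0, and the other was colony 2 replicate 2 of 06:00, day 11, with 77.6. The next library, 14:00 colony 2 replicate 1, had a score of 45.0 and the others at most 10.7. For each gene called between 10:00 and 22:00 by the naming rule, the outcome without the 3 is given below.

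Markers of the labelled tissue were found in all 8 libraries. Ks-1, a noncoding RNA known from small Kenyon cells, was at 10.7 to 61.7 CPM (counts scaled by TMM to a common library size), although its locus overlaps that of TyrR. The 4 small Kenyon cell markers tested, Ks-1, Tk, E74 and Ecr, summed to 1272 to 1720 CPM at 10:00 and to 1461 to 1571 CPM at 22:00. Of the 4, 0 passed the test between the times and 1 had an unadjusted p under 0.05, against 2.16% and 16.6% of all genes tested. The sum hides opposed members: 3 lay above 0 on the log2 scale (10:00 minus 22:00, median 0.39), while Tk, its largest part, lay below 0. Markers of large and middle Kenyon cells (Mblk-1, Camkii, Ip3k and Pkc) were present as well, at a summed 5471 to 9713 CPM at 10:00 and 5718 to 8447 CPM at 22:00, with 0 of 4 passing.

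In all, 212 of 9816 genes tested differed between 10:00 and 22:00, which is 2.16% (edgeR's quasi-likelihood test with colony as a term, Benjamini-Hochberg adjusted p under 0.05, termed called below). Of these, 92 (0.937%) were higher and 120 (1.22%) lower at 10:00, while 1625 genes (16.6%) had an unadjusted p under 0.05. Most changes were moderate: the median log2 difference, 10:00 minus 22:00, was 0.82 in the genes called higher and -0.74 in those called lower, against -0.02 over all genes. Differences beyond 2-fold were found in 24 of the 92 and 32 of the 120. The called genes were not rare transcripts, with a median over the 8 libraries of 119 CPM in those higher and 78.7 CPM in those lower, against 47.3 CPM for all genes tested.

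The number of called genes varied widely with the libraries and the method used. Colony 1 alone gave 415 genes, of which 141 were among the 212, and colony 2 alone gave 341, of which 96 were. DESeq2 on all libraries called 519 and limma-voom with quality weights 697. Without the 3 libraries standing apart, which leaves colony 1 alone at 10:00, 70 genes were called, 52 higher and 18 lower, and 50 of them were among the 212. Of the 31 called genes named by the rule, 11 were called there and 20 were not. All 212 kept their sign there, although that fit shares its libraries with the one that chose the genes. With replicates added up into 1 library for each colony and time, 0 genes were called by edgeR and 668 had an unadjusted p under 0.05. Leaving out a single library moved the count to 78 without 22:00 colony 1 replicate 2, 85 without 22:00 colony 2 replicate 1, 96 without 10:00 colony 2 replicate 2, 121 without 22:00 colony 2 replicate 2, 122 without 10:00 colony 2 replicate 1 and 137 without 22:00 colony 1 replicate 1. It moved to 234 and 279 without either colony 1 library of 10:00, and to 535 without colony 2 replicate 2 of 06:00, day 11, which is in neither group but shares the estimate of the spread.

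**Figure D1:**
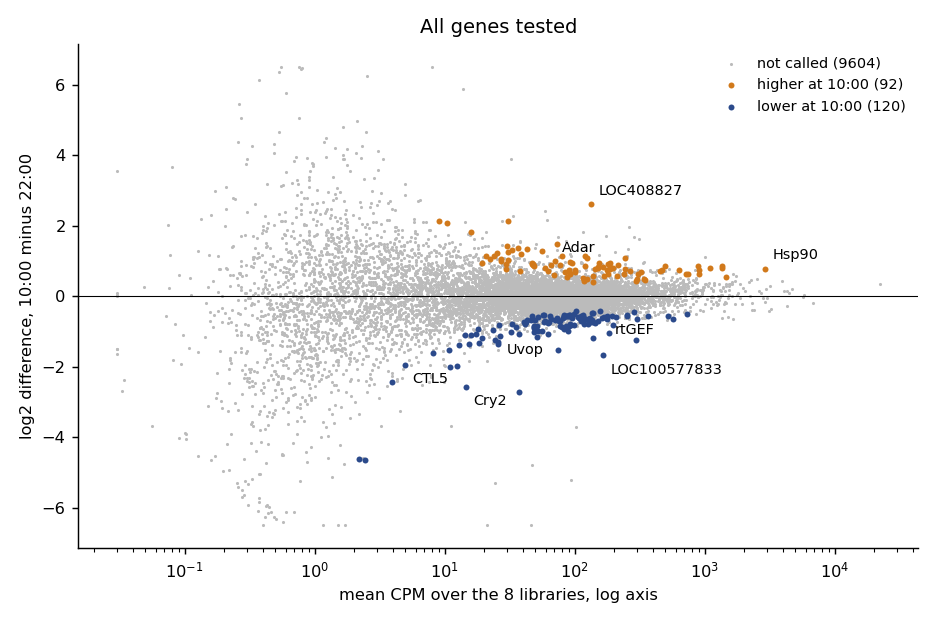
Log2 difference between 10:00 and 22:00 (vertical axis, 10:00 minus 22:00) against the mean CPM over the 8 libraries (horizontal axis, log scale) for all 9816 genes tested, each point a gene. The 92 genes called higher and the 120 called lower lie mostly within 2-fold and above 10 CPM, and the 9 genes beyond 6.5 on the log2 scale are drawn at that limit.

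Cry2, the repressor of the bee clock loop, was the core clock gene that differed. In the order colony 1 replicates 1 and 2, then colony 2 replicates 1 and 2, which is kept throughout, Cry2 was at 5.68, 7.21, 3.92 and 0 CPM at 10:00 and at 23.6, 23.3, 22.4 and 30.8 CPM at 22:00. All 4 morning libraries lay below all 4 evening libraries, and the count of 0 in 10:00 colony 2 replicate 2 allows up to 0.515 CPM (3 counts, covering counting error only). The log2 difference was -2.57 (SE 0.521, edgeR adjusted p = 0.00853). It was -1.86 in colony 1 and -3.78 in colony 2, and the test of this colony difference gave adjusted p = 0.278. Without the 3 libraries standing apart Cry2 was still called, at -1.81 (adjusted p = 0.00451).

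Over the day the mean of Cry2 ran from 4.20 ± 3.11 CPM (SD, n = 4) at 10:00 through 13.2 ± 3.23 at 14:00 and 17.6 ± 2.42 at 18:00 to 25 ± 3.86 at 22:00. Thereafter the means were 20.9 ± 5.61 at 02:00 and 12.2 ± 3.61 at 06:00 of day 12, with 10.0 ± 5.27 CPM (n = 3) at 06:00 of day 11. The low and the high end of this course are therefore the times compared here.

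Per, the partner of cryptochrome in the repressor complex, was at 28.3, 33.0, 25.9 and 31.9 CPM at 10:00 and 29.7, 39.0, 35.3 and 29.5 CPM at 22:00, and the groups overlapped. The log2 difference was -0.17 (SE 0.231, adjusted p = 0.755). These were the 2 genes matched of the 14 listed for the core clock, and their median was -1.37. E75, a nuclear receptor that modulates the clock in Drosophila and the single tested gene of the clock output list, had a log2 difference of 0.31 (adjusted p = 0.533).

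**Figure D2:**
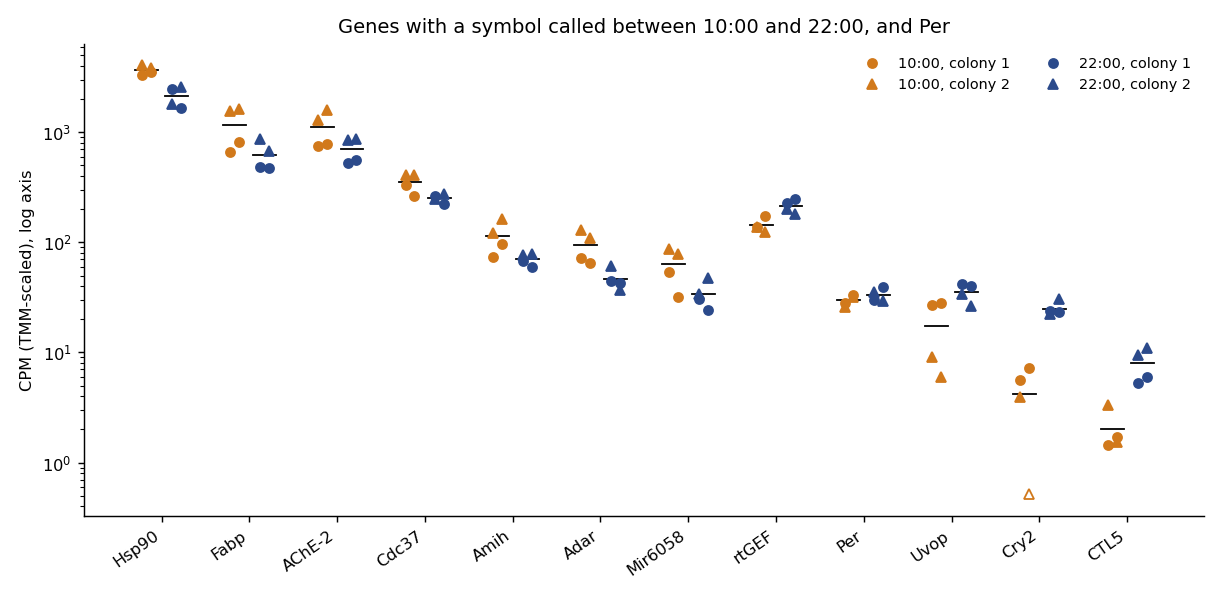
CPM (log axis) in each of the 8 libraries for the 10 called protein-coding genes with a symbol, the called microRNA locus Mir6058, and Per; orange marks 10:00 and blue 22:00, circles colony 1 and triangles colony 2, and bars are group means. Cry2, Hsp90, Adar, rtGEF and CTL5 show no overlap between times, and the open triangle is the Cry2 count of 0 drawn at its limit of 0.515 CPM.

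Hsp90 and Cdc37, which work together on client proteins, were higher in the morning. Hsp90, an abundant chaperone that folds kinases and nuclear receptors, was at 3324, 3521, 4054 and 3852 CPM at 10:00 and at 2495, 1675, 1796 and 2585 CPM at 22:00. Every 10:00 library exceeded every 22:00 library, with a log2 difference of 0.78 (SE 0.191, adjusted p = 0.0267), about as large in colony 1 (0.72) as in colony 2 (0.85). Cdc37, the co-chaperone that hands kinases to Hsp90, was at 330, 266, 408 and 412 CPM at 10:00 and at 262, 223, 248 and 274 CPM at 22:00. Its groups overlapped, as 10:00 colony 1 replicate 2 lay below 22:00 colony 2 replicate 2, and the log2 difference was 0.47 (SE 0.122, adjusted p = 0.0348).

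The chaperone list held 5 tested genes, of which 2 were called higher and 0 lower, where 2.16% of all genes were called. Their median log2 difference was 0.27. The 3 that did not pass were of the Hsp70 family: Hsc70-3 of the endoplasmic reticulum (0.27, adjusted p = 0.339), Hsc70-4 (0.16, adjusted p = 0.688) and Hsc70-5 (-0.01, adjusted p = 0.977). Without the 3 libraries standing apart Hsp90 had the same log2 difference of 0.78 with adjusted p = 0.0875, and Cdc37 had 0.36 with adjusted p = 0.265, so neither was called there.

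Adar, the enzyme that edits adenosine to inosine in neuronal transcripts, was among the symbol-bearing genes with the smallest p. It was at 72.1, 65.0, 129 and 109.7 CPM at 10:00 and at 44.8, 42.3, 61.4 and 37.1 CPM at 22:00. The times did not overlap, and the colony 2 libraries of 10:00 were the highest. The log2 difference was 0.98 (SE 0.186, adjusted p = 0.00502), with 0.65 in colony 1 and 1.27 in colony 2. Leaving out the 3 libraries standing apart gave 0.69 and ended the call (adjusted p = 0.118). The Adar locus overlaps LOC410613, and the strand setting of the counting is not known.

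Of the genes listed for transmission and excitability, AChE-2 and Amih were the ones called, both higher in the morning. AChE-2, an acetylcholinesterase, which breaks down the transmitter acetylcholine, was at 753, 782, 1303 and 1605 CPM at 10:00 and at 526, 564, 851 and 864 CPM at 22:00. Within each colony the morning libraries were the higher ones, while colony 1 in the morning overlapped colony 2 in the evening. The log2 difference was 0.64 (SE 0.145, adjusted p = 0.0179). Amih, the hyperpolarisation-activated cation channel of the bee, was at 73.9, 96.7, 123 and 163 CPM at 10:00 and at 67.3, 59.8, 76.5 and 78.6 CPM at 22:00, again separated within each colony. Its log2 difference was 0.66 (SE 0.164, adjusted p = 0.0306), and its locus overlaps the noncoding gene LOC107964825. Neither gene was called without the 3 libraries standing apart, with log2 differences of 0.39 for AChE-2 and 0.41 for Amih.

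Beside AChE-2, 0 of the other 10 tested genes of the nicotinic receptor and acetylcholine list passed, and the list's median was 0.10. Of these, nAChRa1, an alpha subunit of the nicotinic receptor, was at 54.8 to 82.4 CPM at 10:00 and 33.0 to 49.5 CPM at 22:00 without overlap, but with adjusted p = 0.102 (log2 difference 0.63, SE 0.207). It was 1 of the 2 in the list with an unadjusted p under 0.05, where 16.6% of all genes had one. The voltage-gated channels Para and Cac on the ion channel list did not pass either, with log2 differences of 0.37 and 0.32.

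The receptors of the other transmitters gave 0 called genes. With 2.16% of all genes called, 0 in lists this short is a description. Of the 10 biogenic amine genes tested, 2 had an unadjusted p under 0.05, where 16.6% of all genes did, and the median log2 difference was 0.07. Dop1, the D1-like dopamine receptor, had all 4 morning libraries (458, 334, 363 and 350.3 CPM) above all 4 evening libraries (276, 261, 205 and 265 CPM), yet its log2 difference of 0.58 had SE 0.276 and adjusted p = 0.289. The serotonin receptor 5-HT2alpha had the opposite order, at 39.2, 38.8, 13.2 and 21.1 CPM in the morning and 54.0, 48.8, 44.2 and 42.2 CPM in the evening (-0.81, SE 0.386, adjusted p = 0.290). In both, separation of 4 against 4 libraries came without a call, which was common: 710 of 9816 genes (7.23%) had groups that did not overlap, and 164 of the 212 called genes were among them.

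Of the 9 glutamate, GABA and histamine genes, 7 lay above 0, with a median of 0.37, 0 called and 3 at an unadjusted p under 0.05. Over all genes, 47.8% lay above 0 and 16.6% had such a p. The metabotropic receptor mGlutR1 was at 137, 138, 122 and 101 CPM at 10:00 and 65.1, 75.6, 68.4 and 106 CPM at 22:00 (0.67, SE 0.20, adjusted p = 0.0753). Without the 3 libraries standing apart it was called, at 0.92 (adjusted p = 0.00809). Among the 9 neuropeptide genes, with a median of -0.20 and 0 called, the closest to the threshold was SIFR, the receptor of SIFamide, at 45.1, 40.8, 71.4 and 60.3 CPM in the morning and 17.1, 27.1, 33.1 and 29.9 CPM in the evening. Its groups were separate, with a log2 difference of 1.02 (SE 0.297, adjusted p = 0.0674). Tk, the tachykinin precursor, was at 1298, 974, 876 and 807 CPM and at 1201, 1314, 1236 and 1228 CPM (-0.35, adjusted p = 0.507).

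Synaptic structure and memory signalling likewise gave 0 called genes, where 2.16% of all genes were called and 16.6% had an unadjusted p under 0.05. The 8 memory signalling genes had a median of 0.09 and 2 at an unadjusted p under 0.05, and Ip3k, a kinase of inositol trisphosphate, came nearest (0.58, SE 0.161, adjusted p = 0.0550). The 3 synaptic vesicle genes had a median of 0.25, led by Syx1A (0.29, adjusted p = 0.373) and Syt1 (0.25, adjusted p = 0.439). The 5 adhesion genes had a median of -0.11, where the neuroligin NLG-5 (-0.92, adjusted p = 0.131) and the neurexin Nrx-1 (-1.24, adjusted p = 0.217) had the smallest p.

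rtGEF was also lower in the morning. It was at 138, 172, 139 and 124 CPM at 10:00 and at 226, 246, 203 and 179 CPM at 22:00, with no overlap and a small spread. The log2 difference was -0.57 (SE 0.116, adjusted p = 0.00835), similar in colony 1 (-0.61) and colony 2 (-0.54). Its means were 176 ± 8.56 CPM at 14:00, 187 ± 26.7 at 18:00, 241 ± 20.2 at 02:00, 216 ± 18.6 at 06:00 of day 12 (n = 4 each) and 228 ± 7.71 at 06:00 of day 11 (n = 3), so 10:00 was the lowest. Leaving out the libraries standing apart gave -0.53 (adjusted p = 0.0570). The rtGEF locus overlaps LOC552719 and LOC725527.

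Uvop, the ultraviolet opsin of photoreceptors, was likewise lower in the morning, at 26.7, 28.0, 9.14 and 6.01 CPM against 42.0, 40.1, 34.2 and 26.2 CPM in the evening. The log2 difference was -1.13 (SE 0.287, adjusted p = 0.0327), and the times were separate within each colony but overlapped across colonies. It was -0.56 with adjusted p = 0.482 without the 3 libraries. The other 3 opsins tested did not pass, and Lop1, the long-wavelength opsin, had its highest values where Uvop had its lowest: 14.9, 64.2, 346 and 315 CPM at 10:00 against 63.4, 106, 82.9 and 71.9 CPM at 22:00 (0.39, adjusted p = 0.834). The 4 opsins together summed to 43.3 to 375 CPM at 10:00 and 108 to 154 CPM at 22:00. The part of optic lobe or retinal RNA in the Uvop value was not tested.

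CTL5, of the C-type lectin family of sugar-binding proteins, was low at 1.45, 1.70, 3.36 and 1.55 CPM in the morning and 5.30, 5.98, 9.58 and 10.9 CPM in the evening. The groups did not overlap (-1.96, SE 0.529, adjusted p = 0.0471), but the call was kept in 5 of 21 alternative analyses, and the locus overlaps RpL35 and LOC409195. It was not called when the 3 libraries standing apart were left out (-2.12, adjusted p = 0.150).

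Fabp, which encodes a fatty acid-binding protein, was at 667, 816, 1562 and 1641 CPM at 10:00 and at 481, 473, 865 and 681 CPM at 22:00, separate within each colony (0.86, SE 0.215, adjusted p = 0.0309). Leaving the 3 libraries out gave 0.53 and no call (adjusted p = 0.228). A second Fabp copy in the table may share its reads. Fabp was the single gene called of the 13 tested in the gland, fat body and hemolymph list, whose summed level of 729 to 1775 CPM at 10:00 and 556 to 930.2 CPM at 22:00 was mostly Fabp itself. Of the 13 genes, 9 lay above 0 on the log2 scale, with a median of 0.55, and 1 had an unadjusted p under 0.05. The royal jelly gene Mrjp1 and the storage protein gene Hex70a were each at 0 to 3.43 CPM in all 8 libraries. Vg, the yolk protein gene, did not pass the filter on low counts.

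Markers of other cells that laser capture can take along were also measured. For glia the 1 marker matched was Eaat-2, a transporter of glutamate, which was at 72.7, 165, 149.8 and 126 CPM at 10:00 and at 48.4, 60.5, 79.1 and 44.3 CPM at 22:00 (1.14, SE 0.391, adjusted p = 0.130). The 7 troponin genes that stood for muscle summed to 97.6, 87.6, 705 and 196 CPM at 10:00 and 36.0, 71.7, 115 and 135 CPM at 22:00. The 6 tested had differences above 0, where 47.8% of all genes did, at a median of 1.19. Of these, 0 were called and 2 had an unadjusted p under 0.05, against 2.16% and 16.6% of all genes. In the summed level, 10:00 colony 2 replicate 1 was far above the rest. The part of glial or muscle RNA in the genes called higher at 10:00 was not tested.

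The hormone genes gave 0 called of 10 tested and 3 at an unadjusted p under 0.05, against 2.16% and 16.6% of all genes. Their median was 0.19. LOC724216, which RefSeq lists as jhamt, the methyltransferase of juvenile hormone synthesis, was at 0.668, 1.70, 2.24 and 0 CPM in the morning and 2.56, 9.53, 6.11 and 174 CPM in the evening. The morning libraries all lay below the evening ones, yet a single evening library held most of the signal, and the adjusted p was 0.115. LOC551179, listed as CYP15A1, the epoxidase of the same pathway, was at 16.9, 12.1, 7.65 and 0 CPM and at 13.3, 30.6, 17.8 and 69.9 CPM (adjusted p = 0.131), with its highest value in that library too.

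In the antioxidant list 8 of 8 genes lay above 0, where 47.8% of all genes did, with a median of 0.32 and 0 called. The smallest p belonged to GstS1 (0.37, adjusted p = 0.311) and Sod2 (0.41, adjusted p = 0.320). The difference of GstS1 was 0.22 in colony 1 and 0.51 in colony 2, and that of Sod2 was 0.06 and 0.74. The 4 mitochondrial genes had a median of 0.20 and 0 called. Of the immediate early genes, E74 was at 217 to 346 CPM in the morning and 175 to 240.3 CPM in the evening (0.56, adjusted p = 0.233), and Kakusei, a nuclear RNA induced by neural activity in the bee, was at 0 to 1.72 CPM. The noncoding RNA Ancr-1 was at 1931, 1682, 784 and 798 CPM and at 2914, 2441, 1447 and 1184 CPM, with the morning values below the evening ones within each colony but without a call (-0.64, adjusted p = 0.255).

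Lists written after the symbols and values had been seen gave the same count of 0, where 2.16% of all genes were called. The 12 ribosomal and translation genes had a median of 0.08, with IF-2mt (-0.38, adjusted p = 0.160) and RpLP1 (0.51, adjusted p = 0.283) having the smallest p. The 7 DNA methylation and chromatin genes had a median of 0.06. Among them Dnmt1a, the maintenance methyltransferase, was at 38.0, 26.1, 17 and 14.3 CPM at 10:00 and at 46.5, 38.3, 33.0 and 35.5 CPM at 22:00 (-0.71, adjusted p = 0.0822). UHRF1, which in mammals brings that enzyme to newly copied DNA, had a log2 difference of -0.55 (adjusted p = 0.145).

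Genes known by identifier alone, for which no function is given here, made up 85 of the 92 genes called higher and 116 of the 120 called lower, as they do most of the table (11497 of 12319 genes). Of 305 tested genes with a symbol, Mir6058 aside, 10 were called (3.28%). Protein-coding genes made up 85 of those higher and all 120 lower, and long noncoding RNAs 6 and 0. Called were 2.33% of the 8803 protein-coding and 0.636% of the 943 noncoding genes tested, shares not matched for level. The remaining gene was Mir6058, a microRNA locus, at 54.2, 31.6, 87.9 and 79.0 CPM in the morning and 30.3, 24.1, 34.1 and 47.6 CPM in the evening (0.85, SE 0.216, adjusted p = 0.0319), and it was not called without the 3 libraries (0.68, adjusted p = 0.296). Poly(A) selection does not capture mature microRNA, so this value is of longer transcripts over the locus. Its neighbour LOC725131, looked up after its values were seen, was also higher (0.80, SE 0.157, adjusted p = 0.00673).

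LOC100577833 had the smallest p of the comparison. It was at 88.1, 69.1, 88.8 and 67.3 CPM at 10:00 and at 252, 287, 199 and 271 CPM at 22:00, a log2 difference of -1.69 (SE 0.180, adjusted p = 4.12e-06). Replicates and colonies lay close together, with -1.78 in colony 1 and -1.59 in colony 2, and the call was kept in 20 of 21 alternative analyses, among them the one without the 3 libraries (-1.73, adjusted p = 0.000608). The mean at 10:00 was 78.3 ± 11.7 CPM (SD, n = 4), while the means at the other times ran from 167 ± 35.3 CPM at 06:00 of day 12 to 252 ± 38.6 CPM at 22:00.

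Of the identifiers lower in the morning that averaged at least 10 CPM without overlap, LOC100578547 differed most and was at 18.7, 11.2, 0 and 9.62 CPM against 79.3, 83.0, 56.2 and 42.7 CPM (-2.73, SE 0.629, adjusted p = 0.0264). LOC412863 was at 53.9, 41.6, 27 and 31.8 CPM against 123, 121, 93.5 and 101 CPM (-1.53, SE 0.291, adjusted p = 0.00550). Both were separate between times and were still called without the 3 libraries standing apart, and both had their highest mean at 02:00, of 102 ± 29.9 and 136 ± 13.6 CPM. LOC551525 (-1.53, SE 0.322) and LOC102654530 (-1.40, SE 0.280) followed at lower levels. LOC100576592 (-2.01, SE 0.548) and LOC726506 (-1.97, SE 0.487) each had a count of 0 in 10:00 colony 2 replicate 1. That count allows up to 0.559 CPM, covering counting error only. LOC551525 was called without the 3 libraries (adjusted p = 0.0138), and LOC102654530 (adjusted p = 0.107), LOC100576592 (adjusted p = 0.164) and LOC726506 (adjusted p = 0.0816) were not.

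Among the identifiers higher in the morning, LOC408827 had the largest difference, at 113, 308, 262 and 237 CPM against 35.7, 36.4, 55.9 and 22.7 CPM (2.60, SE 0.561, adjusted p = 0.0192). LOC410562 was at 54.3, 54.6, 44.2 and 46.5 CPM against 13.6, 8.13, 18.2 and 5.62 CPM (2.12, SE 0.342, adjusted p = 0.00186). LOC408827 varied widely among its morning libraries, where LOC410562 was even. LOC410562 was called without the 3 libraries (adjusted p = 0.00514) and LOC408827 was not (adjusted p = 0.0707). LOC726302 (1.82, SE 0.424), LOC408369 (1.47, SE 0.257), LOC412883 (1.42, SE 0.241), LOC100576805 (1.35, SE 0.298) and LOC725784 (1.34, SE 0.255) were separate between times as well and were called without the 3 libraries. The noncoding RNA LOC100576161, at 10.1 to 25 CPM against 2.28 to 6.10 CPM (2.07, SE 0.555, adjusted p = 0.0446), was not called there (adjusted p = 0.103).

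By level, the most abundant genes called higher were Hsp90, LOC552326 and LOC411114. LOC552326 was at 1508, 1899, 1688 and 1926 CPM in the morning and 849, 631, 1442 and 999.7 CPM in the evening (0.86, SE 0.205, adjusted p = 0.0227), and LOC411114 at 1581, 1429, 1873 and 2109.7 CPM against 1154, 1088, 1269 and 1284 CPM (0.54, SE 0.127, adjusted p = 0.0220). The most abundant called lower were LOC410216 (-0.52, SE 0.120), LOC726187 (-0.64, SE 0.170) and LOC412245 (-0.56, SE 0.139), all under 2-fold. Hsp90 and these 5 were not called without the 3 libraries, with adjusted p of 0.0905 for LOC552326, 0.140 for LOC411114, 0.123 for LOC410216, 0.493 for LOC726187 and 0.284 for LOC412245.

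Of 9785 pairs of tested genes adjacent in the RefSeq order, 6 had both genes called, 4 of them in the same direction. Since 2.16% of genes were called, some such pairs would occur with no tie between neighbours, and the count is a description. Besides Mir6058 and LOC725131 these were LOC100578854 and LOC102654696, higher at 10:00 by 0.89 and 0.91 on the log2 scale, LOC411239 and LOC551513 (-0.73 and -0.92), and LOC551880 and LOC726515 (-0.48 and -0.87). They are named because the count is small, after their values were seen.

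The next question was how the 2 colonies compared. All 92 genes called higher and all 120 called lower had the same sign in both colonies, where 58.6% of all tested genes did, although the call itself draws on both colonies. In 206 of the 212, the morning libraries were separate from the evening libraries within each colony in the same direction, against 1628 (16.6%) of all genes. The median difference of the genes called lower was -0.58 in colony 1 and -1.02 in colony 2, and 103 of the 120 were larger in size in colony 2. In the genes called higher the medians were 0.72 and 0.83, with 56 of 92 larger in colony 2. The like count over all tested genes was not made, so larger sizes in colony 2 are not shown to be particular to the called genes. Variation among libraries was also larger in colony 2 (edgeR's coefficient of 0.375 against 0.179 in colony 1).

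**Figure D3:**
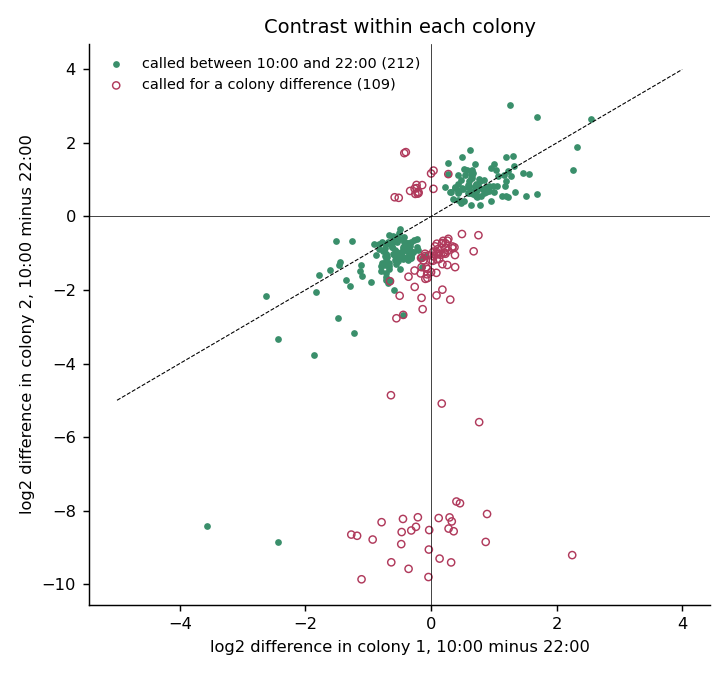
Log2 difference between 10:00 and 22:00 in colony 2 (vertical axis) against that in colony 1 (horizontal axis) for the 212 genes called between the times (filled green) and the 109 called for a difference between colonies (open red); the dashed line marks equal values. Green points share their sign between colonies, and the band of 28 red points at the bottom holds genes with a count of 0 in both colony 2 libraries of 10:00.

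A test of the difference itself, that is of the contrast in colony 2 minus that in colony 1, called 109 genes (1.11%), 17 higher and 92 lower in colony 2. The count depended on single libraries: it ran from 5 to 700 as each of the 8 libraries was left out, with 5 without 22:00 colony 1 replicate 2 and 700 without 10:00 colony 2 replicate 2. It was 27 and 17 without replicate 1 or 2 of 10:00 colony 1, 341 without 10:00 colony 2 replicate 1, 7 without 22:00 colony 1 replicate 1 and 43 without 22:00 colony 2 replicate 2. It was 0 in a fit of the 8 libraries alone (1112 at unadjusted p under 0.05). Without the 3 libraries standing apart colony 2 has no library at 10:00, so the test cannot be made. Among the 212 were 6 of the 109, where 2.16% of all tested genes were called between the times. Of these 6, 1, LOC726547, was higher at 10:00. Opposite signs in the colonies were found in 66 of the 109, while 58.6% of all tested genes had the same sign in both. A test of the colony difference itself favours genes with opposite signs, so this count is a description.

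Of the 109, 28 had a count of 0 in both colony 2 libraries of 10:00, as did 781 of all genes tested. LOC410415 was at 13.9 and 9.64 CPM in the morning in colony 1 and 0 and 0 in colony 2, against 11.0, 13.3, 10.3 and 14.2 CPM in the evening. On a floor of 3 counts per library (0.559 CPM), LOC410415 was at least 21.9-fold lower in the morning in colony 2. These 2 morning libraries differed beyond counting error (chi-square per degree of freedom of 29.75), and LOC726506 had counts of 0 and 26 in them. The bounds given here therefore cover counting error only. The like bounds were 15.4-fold for LOC113219269, 18.6-fold for LOC107965179 and 16.6-fold for the noncoding RNA LOC107964882. LOC411362 had counts throughout, at 179.6, 218, 89.7 and 90.5 CPM in the morning and 153, 153, 171 and 151 CPM in the evening, above the evening in colony 1 and below it in colony 2 (difference -1.21, adjusted p = 0.00325).

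The 3 symbol-bearing genes with a colony difference encode ribosomal proteins and a subunit of cytochrome c oxidase. Rps14 was at 471, 496, 1229 and 1175 CPM in the morning and 588, 570.0, 713 and 709 CPM in the evening, a difference between colonies of 1.02 (adjusted p = 0.0144). Rpl41 was at 173, 149, 446 and 501 CPM and at 206, 199, 249.8 and 335 CPM (1.03, adjusted p = 0.0379). Cox6b1 was at 164, 163, 370.1 and 359.9 CPM and at 193, 182, 230.4 and 238 CPM (0.84, adjusted p = 0.0415). In all 3, colony 2 was above its evening level and colony 1 below it, and none was called between the times over both colonies. Over all times the highest values lay at 06:00 of day 11, at 1362 CPM for Rps14, 620 for Rpl41 and 539 for Cox6b1. The 3 libraries standing apart are both colony 2 morning libraries and a colony 2 library of that time. Whether the colony difference of these genes goes with those libraries rather than with the hour was not tested.

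The other times of the day were then set beside the contrast. Since the genes were chosen for their difference between 10:00 and 22:00, the choice itself tends to put their extremes at 10:00 and the other times in between, and the values that follow are a description. Of the 92 genes higher at 10:00, 91 had their highest of 7 time means there, and of the 120 lower, 118 had their lowest there, where 10:00 was the highest time of 15.0% and the lowest of 24.5% of all genes. Placing 22:00 at 0 and 10:00 at 1, the median gene of the higher set stood at 0.48 at 14:00, 0.35 at 18:00, -0.08 at 02:00, 0.19 at 06:00 of day 11 and 0.12 at 06:00 of day 12. The lower set stood at 0.37, 0.25, -0.05, 0.28 and 0.06. Of the lower genes 53 had their highest mean at 02:00 and 34 at 22:00, where 14.2% and 8.31% of all genes did. Of the higher genes 42 had their lowest mean at 02:00 and 21 at 22:00, against 14.7% and 7.53% of all genes, so the lean to 02:00 was about as large over all genes.

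**Figure D4:**
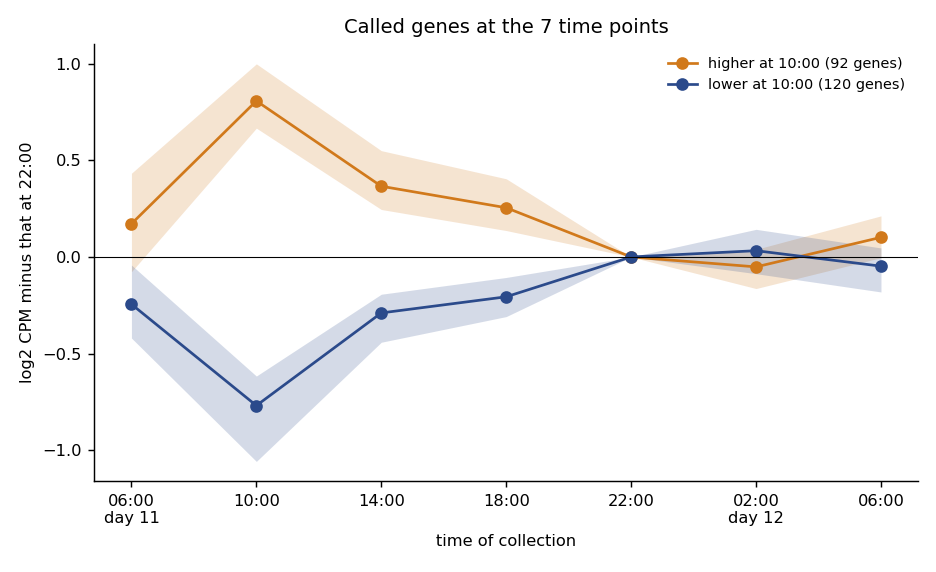
Median (line and points) and middle 50% (band) of log2 CPM minus the value at 22:00 at each of the 7 times of collection, for the 92 genes called higher at 10:00 (orange) and the 120 called lower (blue). Both sets depart furthest from 22:00 at 10:00, with medians of 0.81 and -0.77, and lie near 0 at 02:00 and at 06:00 of day 12.

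The libraries of 14:00 and 02:00 share none with 10:00 and 22:00, although all 27 enter a common fit. Between these times 9 genes (0.0917%) were called. Of the 92 genes higher at 10:00, 91 (98.9%) had a difference above 0 at 14:00 against 02:00, with a median of 0.40, where 51.5% of all genes did and their median was 0.01. Of the 120 lower at 10:00, 110 (91.7%) lay below 0, with a median of -0.32, where 48.5% of all genes did. Across both sets 94.8% had the direction of the contrast, with smaller medians.

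**Figure D5:**
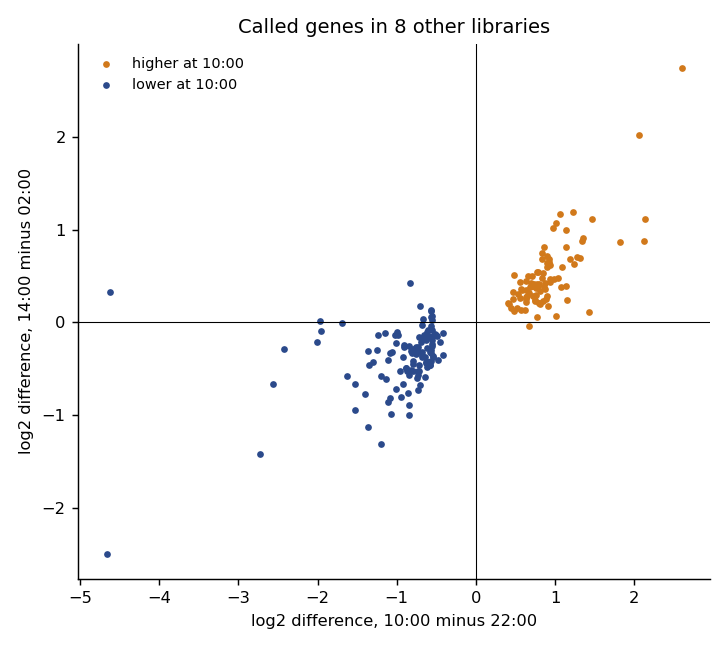
Log2 difference of 14:00 minus 02:00 (vertical axis) against that of 10:00 minus 22:00 (horizontal axis) for the 92 genes called higher (orange) and the 120 called lower (blue) at 10:00, each point a gene; the 2 axes use separate libraries. Of the orange points 91 lie above 0, and of the blue points 110 lie below it.

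The genes called in both comparisons were 3 higher and 1 lower, named after their values were seen. LOC726672 was at 70.1, 107, 153 and 109 CPM at 10:00 and 42.7, 36.6, 59.0 and 61.0 CPM at 22:00 (1.14, SE 0.173), with 0.99 between 14:00 and 02:00. LOC412858 (1.02 and 1.07) and LOC409949 (0.84 and 0.75) were the others higher at 10:00 and at 14:00. LOC726651 was lower at 10:00 than at 22:00 and at 14:00 than at 02:00 (-0.84 and -1.0). Cry2 had -0.66 between 14:00 and 02:00 (adjusted p = 0.594) and Hsp90 0.39 (adjusted p = 0.387). LOC100577833, the clearest gene at 10:00, had a difference of -0.00 there (adjusted p = 0.995), while LOC408827 had 2.74 (adjusted p = 0.0677).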

How the data were processed

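Libraries were stranded and made from polyadenylated RNA, per the labels' protocols. Values used are the authors' deposited raw counts for 27 libraries, and 12317 of the table's 12319 identifiers matched a RefSeq gene table of Amel_HAv3.1, used for names, gene types and neighbours alone. Trimmomatic, FastQC, STAR, featureCounts and DESeq2 are named, per the submitters' processing notes, without versions. Genome build, annotation and strand setting are not given in the sources used here. Genes that overlap or lie antisense, and copies close in sequence (Fabp), are therefore uncertain. The library 06:00 day 11 colony 2 replicate 1 was not analysed here.

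Counts were fitted in R 4.3.3 with edgeR 4.0.16 (filterByExpr by time point, TMM, glmQLFit robust, glmQLFTest) over all 27 libraries, with time point and colony as terms, so that the spread rests on 19 residual degrees of freedom, and 9816 genes were tested. A second fit with a mean per colony and time point tested the colony difference. Benjamini-Hochberg adjustment ran over all genes tested, with genes called under 0.05. Each SE was taken as the absolute log2 difference divided by the root of its F statistic. CPM is TMM-scaled, with a prior count of 2 for logs. Replicate pairs differed beyond sampling noise (chi-square per degree of freedom of 11.1 to 44.3 over genes with at least 20 counts). Variation among libraries of a time point beyond counting error (edgeR's coefficient), part of which may be technical, came to 0.179 for colony 1 and 0.375 for colony 2.

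The comparison, the gene lists and the naming rule were chosen with earlier results of these data known, and the ribosomal and DNA methylation lists were added after values were seen. Genes named are Cry2 and Per, every called gene with a symbol, the 8 largest differences in each direction among called genes averaging at least 10 CPM without overlap of libraries, the 3 most abundant called genes in each direction, up to 3 called or 2 other members of each list, and for the colony difference the 5 smallest p and every called symbol. Some genes outside it are given and described as such, and further list members are given with their values. Alternatives used RLE scaling, DESeq2 1.42.0, limma-voom (limma 3.58.1) with and without quality weights, no filter, other terms and other sets of libraries.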

Additional observations from a re-analysis of the deposited data

Results flagged for a closer look

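Within groups of 4 libraries, a value was noted when its gap to the nearest other library exceeded Dixon's critical share of the group's range. Of 138 groups tested 7 were, and chance gives about 1 in 20. Cry2 in 22:00 colony 2 replicate 2 was at 30.8 CPM, with the others at 22.4 to 23.6 CPM. CTL5 in 10:00 colony 2 replicate 1 was at 3.36 CPM against 1.45 to 1.70 CPM. NPF, neuropeptide F, had 0.182 CPM in 22:00 colony 2 replicate 1 and 0 in the others. LOC724216 (jhamt) in 22:00 colony 2 replicate 2 was at 174 CPM against 2.56 to 9.53 CPM. GstS1 in 22:00 colony 1 replicate 1 was at 376 CPM against 445 to 458 CPM. TpnCIIIa in 10:00 colony 2 replicate 1 was at 285 CPM against 27.7 to 56.5 CPM. LOC411362 in 22:00 colony 2 replicate 1 was at 171 CPM against 151 to 153 CPM.

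The contrast of 10:00 with 22:00 differed between the colonies by the test of the difference (colony 2 minus colony 1, log2) for Cox6b1 (0.84), Rps14 (1.02) and Rpl41 (1.03), which lay higher in colony 2, and for LOC411362 (-1.21), LOC410415 (-9.77), LOC113219269 (-9.44), LOC107965179 (-9.23) and LOC107964882 (-8.78), which lay lower. The last 4 had counts of 0 in both colony 2 libraries of 10:00, so their fitted sizes depend on the default prior of the fit. That prior is not the prior count of 2 used for log CPM.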

How the results depend on the processing

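The 212 called genes kept their direction in every alternative that tested them, 211 of them in the fit of the 8 libraries. The alternatives share libraries with the fit that chose these genes, which favours the same direction. The like count over all tested genes was not made, so kept directions are a description. The count was 225 with RLE scaling, 204 in limma-voom, 192 without a filter and 198 from the 8 libraries alone (118 shared). It was 519 in DESeq2, 697 in limma-voom with quality weights, 415 in colony 1 alone, 341 in colony 2 alone, 79 without a colony term, 70 without the 3 libraries standing apart and 0 with libraries summed per colony and time point. Leaving out 1 library gave 78 to 535, the highest without colony 2 replicate 2 of 06:00, day 11, and the lowest without 22:00 colony 1 replicate 2. Replicate numbers do not pair samples (correlations of -0.0268 in colony 1 and -0.0256 in colony 2), and with a replicate block 172 genes were called, 171 of them shared. The share of called genes with the same sign between 14:00 and 02:00 was 88.0% to 97.9%. The colony difference was called for 107 genes with RLE scaling, 377 in DESeq2, 6 in limma-voom, 98 without a filter, 0 in the 8 libraries and 5 to 700 without 1 of the 8. Of 31 called genes named by the rule, 11 were called without the 3 libraries and 12 without 22:00 colony 1 replicate 2, and over 21 alternatives 429 of 651 calls were kept, 222 lost and 0 reversed. Signs turned in genes that were not called: with quality weights Cox6b1 (-0.026), LOC411362 (0.15), Rps14 (-0.045) and Rpl41 (-0.13), in colony 1 alone Cox6b1 (-0.18), LOC113219269 (0.15), LOC411362 (0.39), Rps14 (-0.24) and Rpl41 (-0.32), and without the 3 libraries Cox6b1 (-0.20), LOC113219269 (0.15), LOC411362 (0.26), Rps14 (-0.23) and Rpl41 (-0.36). For changes whose construction does not show the cause, the cause was not tested. Depth limits genes below about 3 counts per library, at most 0.559 CPM here.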
